A study of Mus musculus with 6 samples.

Results

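Small leucine-rich proteoglycans (SLRPs) are secreted matrix proteins built from leucine-rich repeats, many of which carry glycosaminoglycan chains. The 10 family genes Ogn, Dcn, Bgn, Lum, Fmod, Omd, Aspn, Prelp, Kera and Epyc were taken by name from a table of 24749 Ensembl gene identifiers, and all 10 were found in it. RNA came from whole dissected mouse kidneys of mixed strain at E15.5 (embryonic day), in 3 libraries of each genotype. Knockout kidneys (genotype Foxd1cre; Yapc/c;Tazc/c) carried Foxd1cre with floxed alleles of Yap1 and of Wwtr1, the gene of TAZ, and wild-type kidneys were Cre negative. Cre was in knockout kidneys only, so effects of Foxd1cre itself and of the deletions cannot be told apart. The sources used here do not say whether wild-type kidneys carried floxed alleles without Cre. Nor do they say whether libraries of a genotype came from separate embryos, so the spread behind each p-value is that of these libraries and may be technical in part. Foxd1 drives Cre in the stromal lineage, other cell types of the knockout kidney are not its target, and every cell type of the organ contributes to each value.

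SLRP core proteins bind collagen fibrils and influence how fibrils assemble, and decorin and biglycan also bind growth factors of the TGF-beta family. They are typical products of connective tissue cells, which in the embryonic kidney include the stromal cells of the interstitium and capsule. Which cells supplied their transcripts in these whole kidneys was not tested. By the layout of cysteines and repeats, decorin, biglycan and asporin form class I, lumican, fibromodulin, PRELP, keratocan and osteomodulin class II, and epiphycan and osteoglycin class III. YAP and TAZ, the products of the floxed genes, are transcriptional co-activators that act mainly through TEAD DNA-binding factors.

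The genes lie in clusters (GRCm38). Dcn, Lum, Kera and Epyc follow each other within 202.8 kb of chromosome 10 (97479609 to 97682454), Aspn, Omd and Ogn within 80.06 kb of chromosome 13 (49544443 to 49624501), and Prelp and Fmod within 138.0 kb of chromosome 1 (133910304 to 134048277). Bgn stands by itself on chromosome X (73483602 to 73495933). All are protein coding. The RefSeq promoter table (GRCm38.p6) held entries for 8 of the 10 genes, and Dcn and Lum are the others. The 250 bases before the annotated start are shown for Ogn, because it had the largest decrease of the family, for its chromosome 13 neighbours Omd and Aspn, which share its strand and were not called, and for Bgn, the other gene called lower. Each runs from 5′ to 3′ in the direction of the gene. Capitals mark matches, on either strand, to the TEAD core (GGAATG, or CATTCC on the other strand), the AP-1 site (TGANTCA, which reads the same on both strands), the TATA element (TATAAA, or TTTATA) and the GC box (GGGCGG, or CCGCCC).
Ogn, chr13:49607765-49608014, plus strand: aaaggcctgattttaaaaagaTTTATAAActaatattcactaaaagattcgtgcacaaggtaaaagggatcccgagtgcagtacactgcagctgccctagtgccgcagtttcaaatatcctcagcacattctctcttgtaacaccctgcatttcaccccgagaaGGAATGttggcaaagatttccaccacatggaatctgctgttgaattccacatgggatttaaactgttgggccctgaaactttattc
Omd, chr13:49582212-49582461, plus strand: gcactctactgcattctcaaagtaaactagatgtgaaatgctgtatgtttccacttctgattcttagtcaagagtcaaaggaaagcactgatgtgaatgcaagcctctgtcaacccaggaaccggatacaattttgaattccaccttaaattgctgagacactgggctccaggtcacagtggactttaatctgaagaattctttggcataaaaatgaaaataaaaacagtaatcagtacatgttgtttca
Aspn, chr13:49544193-49544442, plus strand: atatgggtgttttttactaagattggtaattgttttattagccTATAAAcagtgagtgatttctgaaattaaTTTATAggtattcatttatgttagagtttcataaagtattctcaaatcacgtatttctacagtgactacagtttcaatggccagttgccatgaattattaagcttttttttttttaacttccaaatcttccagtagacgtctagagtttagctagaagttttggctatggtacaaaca
Bgn, chrX:73483351-73483600, plus strand: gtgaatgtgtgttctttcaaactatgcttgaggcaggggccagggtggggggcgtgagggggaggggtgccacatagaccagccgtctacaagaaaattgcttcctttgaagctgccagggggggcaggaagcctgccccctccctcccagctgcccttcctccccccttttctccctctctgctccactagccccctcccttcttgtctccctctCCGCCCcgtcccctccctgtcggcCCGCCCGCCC

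The Ogn window held 1 TEAD core, whose first base lies 86 bases before the RefSeq start, and a TATA element read on each strand over partly the same bases, 227 and 229 bases before it. That start is upstream of the GENCODE start of Ogn, which is at 49608046. The Omd window held none of the 4 motifs, the Aspn window 2 TATA elements and the Bgn window 3 GC boxes, of which 2 overlap. Of the other windows of the family, 1 of the 2 for Epyc held a TEAD core, 188 bases before its start, and the second Epyc window and those of Fmod, Kera and Prelp held none of the 4 motifs. Among 32851 RefSeq windows of the same length, 12.6% held a TEAD core, 6.75% an AP-1 site, 12.4% a TATA element and 32.7% a GC box. The GC content of these windows was 42.0% for Ogn, 38.4% for Omd, 30.0% for Aspn and 64.4% for Bgn, against a median of 52.4% over all windows. Such matches describe the letters in these windows and are not evidence of binding.

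Levels are given in FPKM (fragments per kilobase of transcript, made relative to library size), so they can be set side by side between genes. By approximation the libraries held 12700000 to 15500000 fragments, and 19704 to 20013 identifiers had a value above 0. The targeted genes were examined first. Wwtr1 measured 12.9 ± 0.635 FPKM in knockout and 18.8 ± 1.26 FPKM in wild-type kidneys, and Yap1 45.4 ± 2.94 FPKM in knockout and 51.0 ± 4.95 FPKM in wild-type kidneys (SD, n = 3 each). Wwtr1 was called lower (difference of -0.51 in log2(FPKM + 1), limma adjusted p = 0.0235) and Yap1 was not (-0.16, limma adjusted p = 0.378). Rescaling to equal sums ended the Wwtr1 call, as did leaving out wild-type library 2 or knockout library 1, 2 or 3 (limma adjusted p of 0.0517 to 0.115). Wild-type library 3 stood apart in skeletal muscle markers. All 6 of them (among them Myh3, Acta1 and Ttn) were highest there, and their summed level was 2.97 to 12.5 FPKM in knockout libraries, against 1.86, 5.86 and 64.9 FPKM in wild-type libraries 1, 2 and 3.

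As a family, SLRP transcripts were less abundant in every knockout library. The summed level of the 10 genes was 72.9, 67.8 and 80.7 FPKM in knockout libraries 1, 2 and 3, against 143, 129 and 180 FPKM in wild-type libraries 1, 2 and 3. Summed marker levels of some cell groups also differed between genotypes, in either direction. Of 12 marker genes of the renal stroma, the lineage in which Foxd1 drives Cre, 10 had a log2 difference below 0 (median -0.20). Over all genes tested, 8517 of 16899 did. Some of the 10 lay close to 0, such as Lef1 (-0.0037) and Tbx18 (-0.024), and Pdgfra (0.14) and Aldh1a2 (0.16) were above it. The summed level of the 12 was 472 to 484 FPKM in knockout and 528 to 543 FPKM in wild-type libraries. Of these 12, 2 were called lower and 0 higher (0.604% and 0.13% of all genes tested). Ntn1, which encodes the guidance protein netrin-1, measured 2.63 ± 0.288 FPKM in knockout and 10.2 ± 1.39 FPKM in wild-type kidneys (SD, n = 3 each, limma adjusted p = 0.00138). Sfrp1, which encodes a secreted Wnt antagonist, measured 11.6 ± 0.937 FPKM in knockout and 21.9 ± 2.76 FPKM in wild-type kidneys (SD, n = 3 each, limma adjusted p = 0.0127). All 8 markers of the ureteric epithelium had a difference above 0 (median 0.24). By limma 0 of them were called and 6 were higher before adjustment, as were 9.14% of all genes tested. Their summed level was 306 to 325 FPKM in knockout and 263 to 275 FPKM in wild-type libraries. Early nephron and podocyte markers summed to 131.1 to 144.7 FPKM in knockout and 121.6 to 130.9 FPKM in wild-type libraries. Skin and mesothelium markers, mostly Wt1, summed to 46.5 to 53.9 FPKM in knockout and 38.8 to 42.2 FPKM in wild-type libraries. Neither sum overlapped, and limma called 0 genes of either list. The sums of nephron progenitor, endothelium, macrophage and red blood cell markers overlapped between genotypes. The part of these lists in the family's difference was not tested. Ogn, the gene of osteoglycin, and Bgn, the gene of biglycan, were called lower. Dcn and Lum, with mean levels of 47.8% and 53.5% of wild type, did not pass the test, and their wild-type libraries were widely spread. Omd and Fmod had mean levels of 97.4% and 107% of wild type and were not called. In bulk samples, fewer cells of a type and less RNA per cell cannot be told apart.

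**Figure D1:**
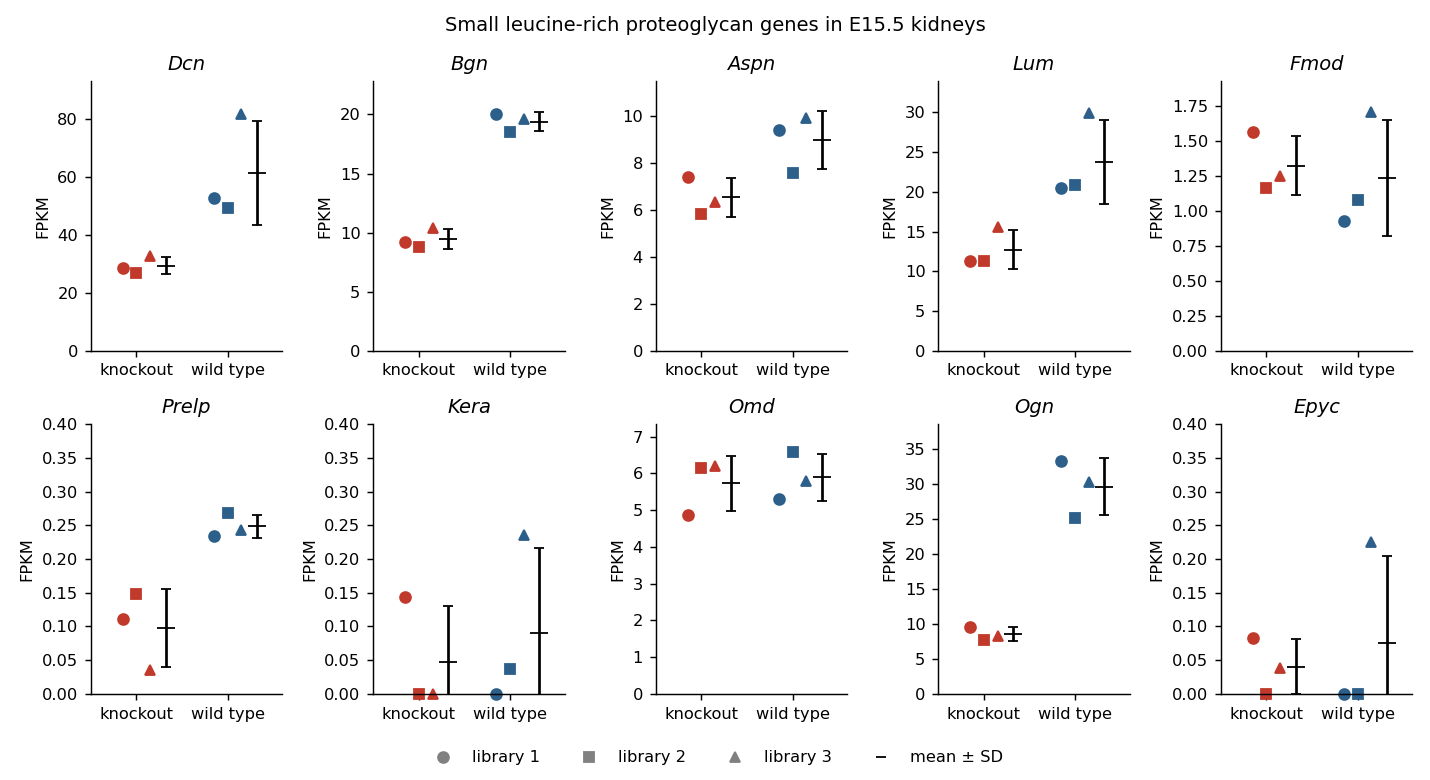
FPKM of each family gene in 3 knockout (left) and 3 wild-type (right) libraries, with symbols for the library number and black marks for mean and SD (the lower ends of bars that would pass below 0 are not drawn). All knockout libraries lie below all wild-type libraries for Dcn, Bgn, Aspn, Lum, Prelp and Ogn.

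Calls rest on limma at a threshold of 0.05 for the Benjamini-Hochberg adjusted p, taken over the 16899 genes whose mean reached 0.5 FPKM. Of the 10 family genes 7 entered the test, and Prelp, Kera and Epyc were too low. Of the 7 tested, 2 were called lower and 0 higher, while 0.604% of all genes tested were called lower and 0.13% higher. Before adjustment, 5 of the 7 had a limma p under 0.05 with a lower level and 0 with a higher one, and 6.94% of all genes tested were lower and 9.14% higher by that measure. The 3 knockout libraries lay below the 3 wild-type libraries for 5 of the 7 tested genes, and for 11.8% of all genes tested. The median difference over all genes tested was -0.0020. FPKM values are made relative to library size, so this median cannot show whether total RNA differed.

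Class I came first in abundance through Dcn. Decorin, its product, carries a chondroitin or dermatan sulphate chain and limits the lateral fusion of collagen fibrils. Dcn (chromosome 10, 97479609 to 97518143) measured 28.6, 26.8 and 32.6 FPKM in knockout libraries 1, 2 and 3, against 52.8, 49.3 and 81.9 FPKM in wild-type libraries 1, 2 and 3. The genotypes did not overlap, and wild-type library 3 lay far above both other wild-type libraries. The log2 difference of -1.01 (SE 0.21, 95% interval from -1.54 to -0.47) was not called (limma adjusted p = 0.145), and the exact two-sided permutation test gave 0.1, the smallest p that 3 against 3 allows. Without wild-type library 3 the knockout mean was 57.5% of wild type in place of 47.8%, the log2 difference was -0.78, and the gene was called lower (limma adjusted p = 0.0178).

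Biglycan, a close relative of decorin that carries more than 1 such chain, binds collagen and bone morphogenetic proteins. Bgn measured 9.17, 8.77 and 10.4 FPKM in knockout libraries 1, 2 and 3, against 20.03, 18.5 and 19.6 FPKM in wild-type libraries 1, 2 and 3. Libraries within a genotype lay close together, and the lowest wild-type library was well above the highest knockout library. Bgn fell to 48.8% of wild type (log2 difference -0.97, SE 0.08, 95% interval from -1.14 to -0.79, limma adjusted p = 0.00263) and ranked 15 of 16899 by p. Without wild-type library 3, which did not stand apart for Bgn, the knockout mean was 49.1% of wild type.

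Asporin is the class I protein with a run of aspartates near its start, and it also binds collagen. Aspn (chromosome 13, 49544443 to 49567565) measured 7.40, 5.81 and 6.35 FPKM in knockout libraries 1, 2 and 3, against 9.41, 7.55 and 9.92 FPKM in wild-type libraries 1, 2 and 3. The highest knockout library lay just under the lowest wild-type library. The log2 difference of -0.40 (95% interval from -0.68 to -0.12) was not called (limma adjusted p = 0.188). Its exons share 7 bp with the opposite-strand gene Cenpp.

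Among class II genes Lum was the most abundant. Lumican, its product, can carry keratan sulphate and spaces collagen fibrils in the cornea. Lum (chromosome 10, 97565128 to 97572703) measured 11.3, 11.3 and 15.6 FPKM in knockout libraries 1, 2 and 3, against 20.5, 20.9 and 29.9 FPKM in wild-type libraries 1, 2 and 3. As for Dcn, library 3 was the highest of its genotype on either side, and the genotypes did not overlap. The log2 difference of -0.85 (SE 0.19, 95% interval from -1.30 to -0.39) was not called (limma adjusted p = 0.138), and without wild-type library 3 the knockout mean was 61.4% of wild type in place of 53.5%. Wild-type library 3 held both the excess of muscle transcripts and the highest Dcn and Lum values. Among knockout libraries the summed muscle markers were highest in library 1 (12.5 FPKM), and Dcn and Lum were highest in library 3. The part of muscle in the Dcn and Lum values was not tested.

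Osteomodulin (also called osteoadherin) is a keratan sulphate proteoglycan best known from mineralised tissue. Omd (chromosome 13, 49582462 to 49592822) measured 4.87, 6.14 and 6.19 FPKM in knockout libraries 1, 2 and 3, against 5.30, 6.58 and 5.79 FPKM in wild-type libraries 1, 2 and 3. The genotypes overlapped throughout, and the 95% interval of the log2 difference (-0.03) ran from -0.30 to 0.23 (limma adjusted p = 0.905). Fibromodulin binds collagen and takes part in cross-linking of fibrils in tendon. Fmod (chromosome 1, 134037254 to 134048277) measured 1.56, 1.16 and 1.25 FPKM in knockout libraries 1, 2 and 3, against 0.925, 1.08 and 1.71 FPKM in wild-type libraries 1, 2 and 3. Wild-type libraries held both the highest and the lowest value, and the interval of the log2 difference (0.07) ran from -0.28 to 0.41 (limma adjusted p = 0.854).

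The remaining class II genes were close to the limit of detection. PRELP binds heparin and collagen in basement membranes and cartilage. Prelp (chromosome 1, 133910304 to 133921414) measured 0.111, 0.148 and 0.0349 FPKM in knockout libraries 1, 2 and 3, against 0.234, 0.268 and 0.243 FPKM in wild-type libraries 1, 2 and 3. On its longest transcript of 3615 bp this is about 2 to 7 fragments in knockout and about 11 to 14 in wild-type libraries, and the genotypes did not overlap. With no filter on low values Prelp was not called (log2 difference -0.19, limma adjusted p = 0.223). Its exons share 350 bp with the opposite-strand gene model Gm15851. Keratocan is a keratan sulphate proteoglycan of the corneal stroma, and Kera (chromosome 10, 97606879 to 97613692) measured 0.143, 0 and 0 FPKM in knockout libraries 1, 2 and 3, against 0, 0.0370 and 0.235 FPKM in wild-type libraries 1, 2 and 3. These are at most about 7 fragments.

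Class III holds Ogn and Epyc. Osteoglycin, also called mimecan, binds collagen and was first found in bone. Ogn (chromosome 13, 49608046 to 49624501) measured 9.62, 7.71 and 8.20 FPKM in knockout libraries 1, 2 and 3, against 33.3, 25.2 and 30.3 FPKM in wild-type libraries 1, 2 and 3. Every wild-type library was far above every knockout library, and wild-type library 3 lay between the other two. Ogn has 1 annotated transcript (2566 bp, 7 exons), on which these levels stand for about 254 to 361 fragments in knockout and about 918 to 1088 in wild-type libraries. Its level fell to 28.7% of wild type (log2 difference -1.68, SE 0.12, 95% interval from -1.95 to -1.41, limma adjusted p = 0.00138), and it ranked 9 of 16899 by p. Epiphycan belongs to growth plate cartilage, and Epyc (chromosome 10, 97644068 to 97682454) measured 0.0823, 0 and 0.0389 FPKM in knockout libraries 1, 2 and 3, against 0, 0 and 0.225 FPKM in wild-type libraries 1, 2 and 3. Its exons share 1041 bp with the opposite-strand gene model Gm10754. Kera and Epyc were next highest in knockout library 1 and highest in wild-type library 3, as were the summed muscle markers (12.5 FPKM in knockout library 1 and 64.9 FPKM in wild-type library 3). What muscle or other tissue contributed to these few fragments was not tested.

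**Figure D2:**
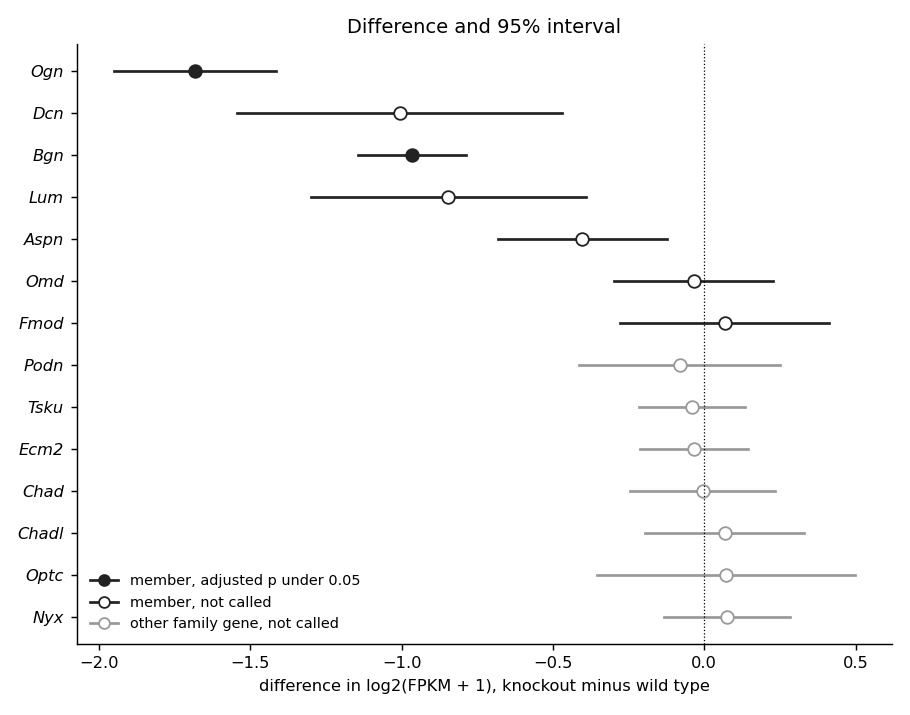
Difference in log2(FPKM + 1), knockout minus wild type, with its 95% interval, for the 7 tested family genes (black) and the 7 tested relatives (grey). Filled points are called at an adjusted p under 0.05, which are Ogn at -1.68 and Bgn at -0.97.

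The order of abundance differed between genotypes in the place of Ogn. In knockout kidneys the mean levels ran from Dcn (29.3 FPKM) through Lum (12.7), Bgn (9.46), Ogn (8.51), Aspn (6.52), Omd (5.73) and Fmod (1.32) to Prelp, Kera and Epyc (0.0980 to 0.0404). In wild-type kidneys they ran from Dcn (61.3 FPKM) through Ogn (29.6), Lum (23.8), Bgn (19.4), Aspn (8.96), Omd (5.89) and Fmod (1.24) to the same 3 low genes (0.249 to 0.0749). Ogn thus ranked 4 of 10 in knockout and 2 of 10 in wild-type kidneys. Neighbours whose libraries overlapped were Bgn with Ogn and Aspn with Omd in knockout kidneys, Ogn with Lum in wild-type kidneys, and the 3 low genes among themselves in both. Dcn exceeded 94.4% and Ogn 86.5% of all identifiers in mean wild-type level, and Fmod 39.0%.

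The make-up of the family level differed between genotypes in the shares of Ogn, Omd, Aspn and Fmod. Dcn supplied 39.3% to 40.4% of the summed FPKM in knockout and 37.0% to 45.5% in wild-type libraries. Ogn supplied 10.2% to 13.2% in knockout and 16.9% to 23.4% in wild-type libraries, with no overlap. The shares of Omd (6.68% to 9.05% in knockout, 3.22% to 5.09% in wild-type libraries), Aspn (7.87% to 10.2% in knockout, 5.51% to 6.60% in wild-type libraries) and Fmod (1.55% to 2.14% in knockout, 0.649% to 0.951% in wild-type libraries) were higher in every knockout library. These 3 genes had no called change in level, and a share can rise when other parts of the sum fall.

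**Figure D3:**
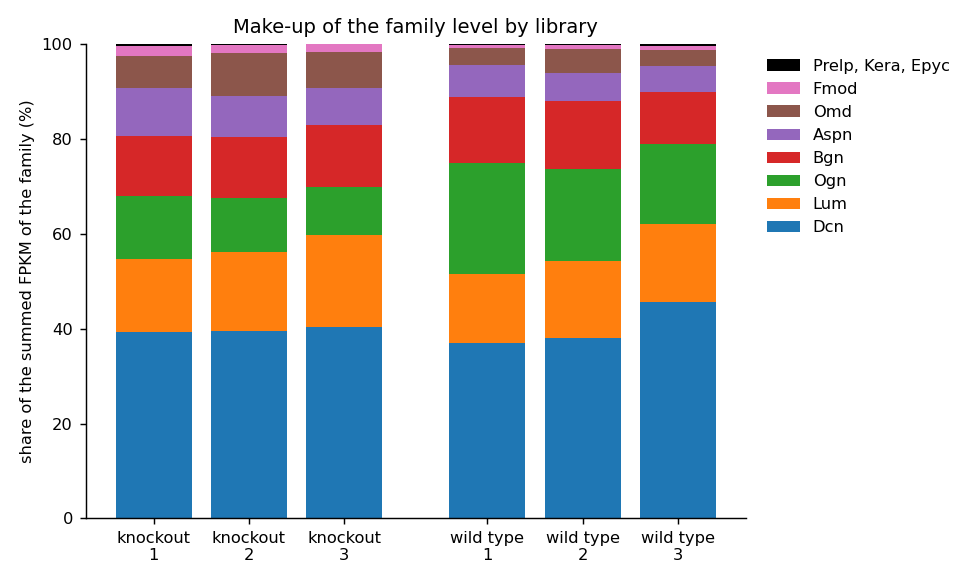
Share of the summed FPKM of the 10 family genes (vertical axis, percent) held by each gene, 1 bar per library, knockout libraries left and wild-type libraries right. The Ogn segment takes 10.2% to 13.2% of knockout bars and 16.9% to 23.4% of wild-type bars.

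On chromosome 13 the level of Ogn relative to its neighbour differed between genotypes without overlap, while on chromosome 10 the ratio of Lum to Dcn overlapped. Within a library, the log2 ratio of Ogn to Omd, which lies next to it on the same strand, was 0.98, 0.33 and 0.41 in knockout libraries 1, 2 and 3, against 2.65, 1.94 and 2.39 in wild-type libraries 1, 2 and 3. The ratio differed by -1.75 with no overlap, at the smallest exact permutation p of 0.1 (0.3 adjusted over the 3 ratios of adjacent tested genes). It re-uses the Ogn values given above and is not separate support for the Ogn call. For Omd over Aspn the ratio averaged -0.19 ± 0.37 in knockout and -0.60 ± 0.35 in wild-type libraries (SD, n = 3 each, exact permutation p = 0.2, adjusted 0.3). The log2 ratio of Lum to Dcn was -1.22 ± 0.14 in knockout and -1.35 ± 0.11 in wild-type libraries (SD, n = 3 each, exact permutation p = 0.3, adjusted 0.3), and the difference was 0.13. Of 9 tested protein-coding genes that are not members and lie within 100 kb of one, 0 were called, with log2 differences between -0.15 and 0.07. These include Cenpp (20.8 ± 1.05 FPKM in knockout, 20.4 ± 0.926 FPKM in wild-type kidneys), whose gene body on the other strand spans Aspn, Omd and Ogn, and Ecm2, a family relative beside Aspn (5.29 ± 0.220 FPKM in knockout, 5.43 ± 0.228 FPKM in wild-type kidneys, SD, n = 3 each).

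**Figure D4:**
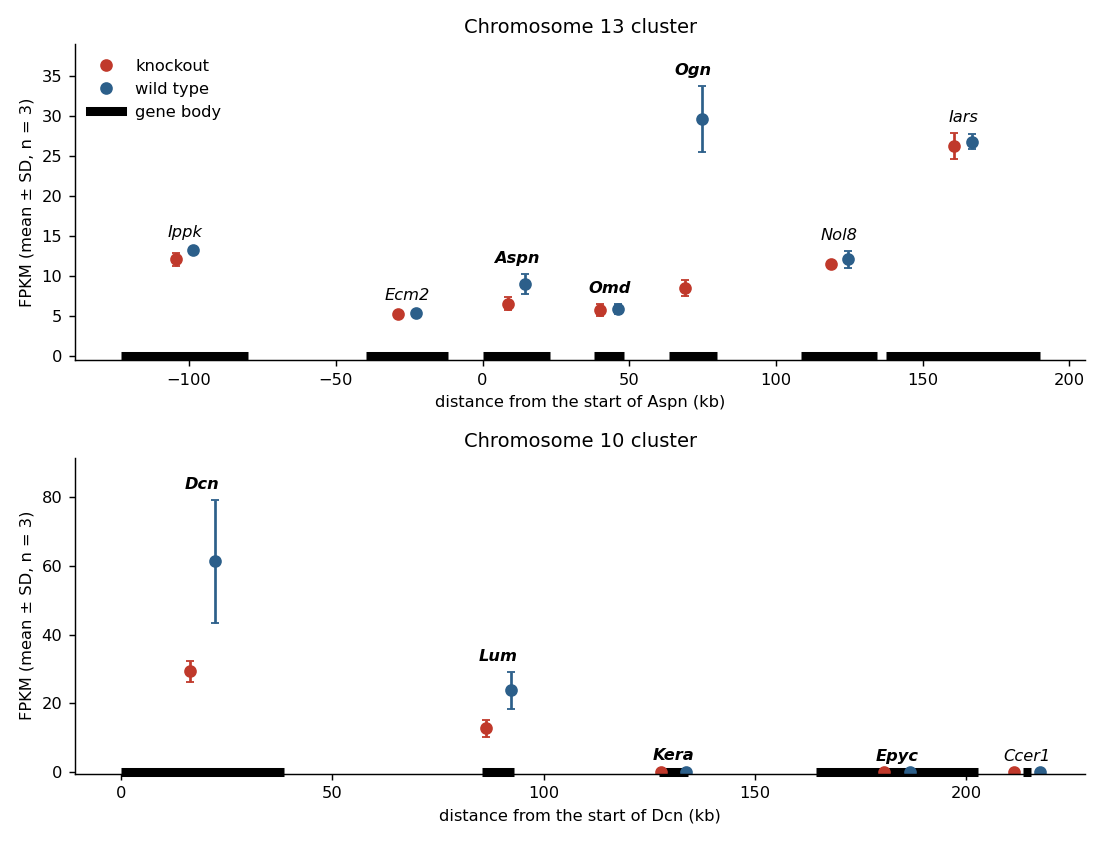
Mean FPKM ± SD (n = 3) of protein-coding genes of the chromosome 13 and chromosome 10 clusters against distance in kb, knockout in red left of wild type in blue, with family genes in bold and gene bodies as black bars (Cenpp, which spans the chromosome 13 cluster on the other strand, is not drawn). Ogn stands at 8.51 FPKM in knockout and 29.6 FPKM in wild-type kidneys, while Omd next to it stands at 5.73 FPKM in knockout and 5.89 FPKM in wild-type kidneys.

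No relative outside the 10 genes was called. Of the 9 further leucine-rich repeat family genes (Optc, Ecm2, Chad, Chadl, Nyx, Tsku, Podn, Podnl1 and Nepn) 7 were tested, 0 were called and 0 had an unadjusted p under 0.05 in limma, with a median log2 difference of -0.0056. Nyx, the gene of nyctalopin, had the smallest p (1.45 ± 0.0603 FPKM in knockout and 1.33 ± 0.0754 FPKM in wild-type kidneys, SD, n = 3 each, limma adjusted p = 0.712), followed by Chadl (log2 difference 0.07, limma adjusted p = 0.802).

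Of 13 collagen genes of the fibrils that SLRPs bind, 4 were called lower and 0 higher (0.604% and 0.13% of all genes tested). Their median log2 difference was -0.16. Before adjustment 4 were lower and 1 higher by limma (6.94% and 9.14% of all genes tested). The higher gene was Col2a1 (log2 difference 0.55). Col12a1, a collagen that decorates fibril surfaces, fell to 8.47 ± 1.21 FPKM in knockout kidneys, against 24.0 ± 0.778 FPKM in wild-type kidneys (SD, n = 3 each, log2 difference -1.41, limma adjusted p = 0.00138). Col14a1, a related surface collagen that decorin binds, fell to 63.2% of wild type (limma adjusted p = 0.00438) and Col5a2, a chain of the collagen that starts fibrils, to 61.8% (limma adjusted p = 0.0048). Col3a1, named after its value was seen, fell to 64.8% (limma adjusted p = 0.0237), a call that ended with equal sums, with quantile normalization, and on leaving out any of the knockout libraries or wild-type library 2 (limma adjusted p of 0.0517 to 0.116). Wild-type library 3 was the highest of all 6 libraries for 10 of the 13 collagens.

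Of the enzymes that build the sugar chains, Dse was called. Of 7 linker enzymes 0 were called, and 3 had a higher and 0 a lower level with an unadjusted limma p under 0.05, where 9.14% of all genes tested were higher and 6.94% lower. B3gat3 and B4galt7 had the smallest p (log2 differences 0.22 and 0.18, limma adjusted p = 0.152 and 0.217). The median log2 difference was 0.11 for the linker enzymes, 0.12 for enzymes of chondroitin and dermatan sulphate and 0.24 for those of keratan sulphate, against -0.0020 over all genes tested. Of 16 enzymes of chondroitin and dermatan sulphate 1 was called lower and 0 higher (0.604% and 0.13% of all genes tested). Dse, the epimerase that turns chondroitin into dermatan sulphate, measured 10.2, 12.0 and 11.8 FPKM in knockout libraries 1, 2 and 3, against 18.0, 17.9 and 16.5 FPKM in wild-type libraries 1, 2 and 3. Dse fell to 64.9% of wild type (log2 difference -0.58, limma adjusted p = 0.0235), a call lost without any 1 library but wild-type library 3 (adjusted p between 0.0581 and 0.120). Chpf2, a chain polymerising factor, had a log2 difference of 0.28 (limma adjusted p = 0.193). Among 5 tested enzymes of keratan sulphate 0 were called, 2 were higher and 1 lower unadjusted, and Chst2 (0.49) and B3gnt2 (-0.50) had limma adjusted p of 0.130 and 0.132.

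Of 7 tested proteases that act on SLRPs 1 was called lower and 0 higher (0.604% and 0.13% of all genes tested). Their median log2 difference was 0.16. Adamts5, an aggrecanase that also cuts biglycan, measured 1.46, 1.34 and 1.53 FPKM in knockout libraries 1, 2 and 3, against 3.69, 3.84 and 4.78 FPKM in wild-type libraries 1, 2 and 3, and fell to 35.2% of wild type (log2 difference -1.06, limma adjusted p = 0.00715). Mmp2, a gelatinase, had a log2 difference of 0.19 (limma adjusted p = 0.241). Of 14 growth factor and receptor genes (median log2 difference -0.02) 0 were called by limma and 1 was higher before adjustment, with Tgfb1 at 0.43 (limma adjusted p = 0.178) and Bmp4 at 0.17 (limma adjusted p = 0.352). Of 21 tested genes for other proteoglycan core proteins 0 were called, and 3 had a lower and 6 a higher level before adjustment (limma p under 0.05, which 6.94% and 9.14% of all genes tested reached in those directions), around a median log2 difference of 0.04. The nearest was Gpc3, a glypican, at 264 ± 2.10 FPKM in knockout and 331 ± 10.6 FPKM in wild-type kidneys (SD, n = 3 each, log2 difference -0.32, limma adjusted p = 0.0501). It was called under 4 of the 14 alternatives tried. Sdc2, a syndecan, had a log2 difference of -0.30 (limma adjusted p = 0.0891).

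**Figure D5:**
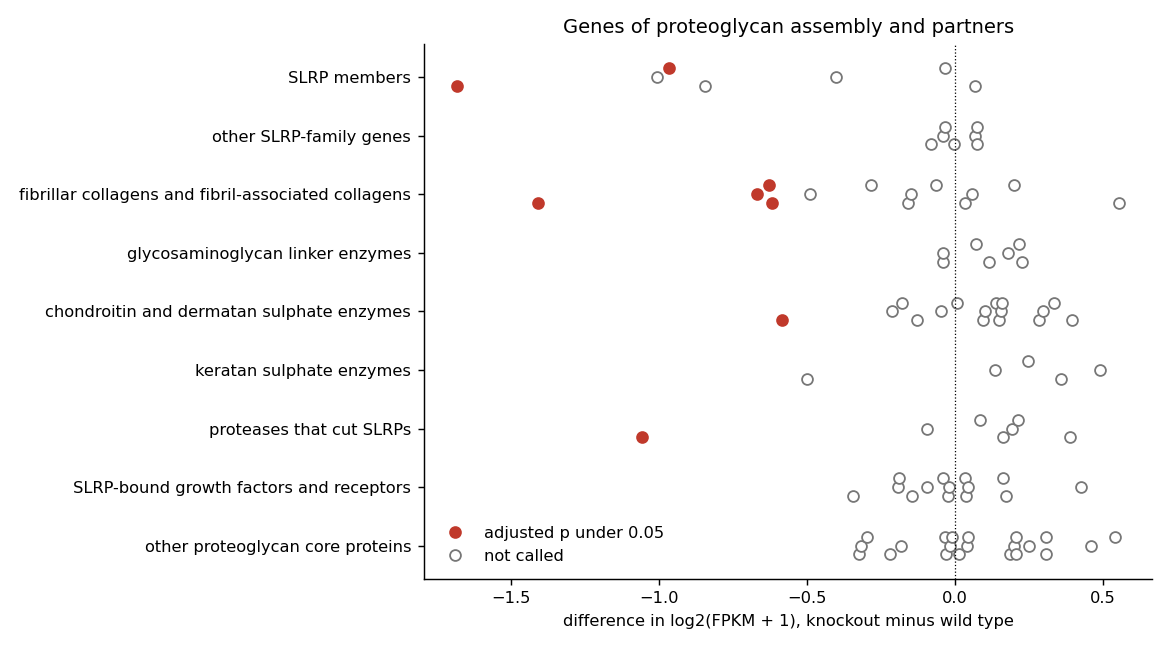
Difference in log2(FPKM + 1), knockout minus wild type, for each tested gene of the family and of 8 lists of relatives, partners and enzymes (vertical offsets within a row only separate points). Red points are called, which are 2 family genes, 4 collagens, Dse and Adamts5.

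Markers of other connective tissues were examined because several SLRPs are typical of them. The summed level of 9 cartilage markers was 22.5 to 24.2 FPKM in knockout and 17.2 to 20.7 FPKM in wild-type libraries, without overlap. By limma 0 of 6 tested genes were called. Before adjustment 2 were higher and 1 lower, as were 9.14% and 6.94% of all genes tested. Of the 6, 4 had a log2 difference above 0, among them Col9a1 (0.56) and Col2a1 (0.55), and 2 below 0, Cnmd (-0.25) and Hapln1 (-0.18). Acan, Comp and Matn1 were under 0.5 FPKM in every library. The summed level of 4 tendon markers was 8.92 to 11.9 FPKM in knockout and 10.3 to 13.1 FPKM in wild-type libraries, most of it Scx, and Tnmd was listed at 0 in 3 of the 6 libraries. The bone markers summed to 6.12 to 7.35 FPKM in knockout and 4.92 to 11.7 FPKM in wild-type libraries, with Ibsp listed at 0 in 4. In smooth muscle and pericyte markers, which belong to the Foxd1 lineage, 3 of 11 were called lower and 0 higher (0.604% and 0.13% of all genes tested). Their sum was 156 to 177 FPKM in knockout and 266 to 293 FPKM in wild-type libraries. The largest difference in level was that of Myl9, at 33.4 ± 7.08 FPKM in knockout and 102 ± 12.9 FPKM in wild-type kidneys (SD, n = 3 each). Of the 11, 8 had a log2 difference below 0 and 3 above 0, among them Kcnj8 (0.28) and Abcc9 (0.17). What share of SLRP transcripts these cells supply was not tested.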

How the data were processed

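The submitters' processing notes name bcl2fastq 2.17.1.14, Salmon and the build GRCm38 (mm10). The sources used here give no annotation release, Salmon version, strand handling or filter. For 6 libraries the authors deposited FPKM values of 24749 identifiers. Symbols were found for 24469, and positions came from GENCODE M21. The table holds no counts. Fragments were approximated from the lowest step of values on genes with 1 annotated transcript of at least 2 kb, taking the full annotated length, so they are approximate. Levels of overlapping genes may not have been separated.

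The 16899 genes whose mean reached 0.5 FPKM were fitted as log2(FPKM + 1), which understates the change of low genes, with limma 3.58.1 in R 4.3.3 (genotype only, trend and robust options), adjusted over all genes tested. The code was tested on simulated data. Percentages of wild type compare mean FPKM. Adjacent genes were compared by exact permutation over 20 assignments. Alternatives covered pseudocount, filter, scaling, moderation, the replicate number as a block, and each library left out. All 10 family genes are named, with up to 3 called genes of each other list, or the 2 of smallest p in lists with under 2 calls. Wild-type library 3, the ratios of adjacent genes, the 100 kb windows and the promoter motifs were chosen after values were seen. The family and the lists were chosen with earlier results of these data known. No pair among 15 pairs of libraries held identical values.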

Additional observations from a re-analysis of the deposited data

How the results depend on the processing

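Ogn and Bgn were called lower under all 14 alternatives (limma adjusted p between 0.00097 and 0.0150 for Ogn and between 0.00186 and 0.0287 for Bgn). Dcn was called only without wild-type library 3 and Lum only with the replicate block (limma adjusted p = 0.0272), and Aspn under none. Leaving out 1 library moved the Fmod difference between -0.033 and 0.21 and the Omd difference between -0.098 and 0.061, both uncalled throughout. Over all genes, leaving out 1 library gave 47 to 103 genes called lower and 7 to 55 called higher, against 102 and 22 with all 6, and equal sums gave 12 called higher. With the replicate number as a block, 30 genes were called lower and 2 higher, 2 of them lower in the wider proteoglycan lists (6 without the block). The block also ended the calls of Wwtr1, Adamts5, Col14a1, Col3a1 and Dse (limma adjusted p = 0.108, 0.0559, 0.0559, 0.109 and 0.129). Over all genes tested, libraries with the same number did not deviate together (correlation 0.024, -0.042 and 0.050), and not every library correlated best with its own number. Such correlations cannot show whether libraries with the same number shared a batch or litter. Depth limits Prelp, Kera and Epyc, which rest on few fragments.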
